A study of Homo sapiens with 36 samples.

Results

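The 6 total RNA libraries prepared from WiT49 cells after 72 h in culture medium with actinomycin D (actD) or with its vehicle were compared across all expressed genes, by pathway and by gene type. They were chosen by their labels, as all total RNA libraries of the 72 h time point, and are 6 of the 36 libraries of the series, which also covers other times and ribosome footprints. WiT49 is an established cell line from an anaplastic Wilms tumor, the kidney cancer of childhood whose anaplastic form responds poorly to chemotherapy. One group of 3 libraries came from cells given 2 nM actD for 72 h, and the other group of 3 from cells given DMSO for 72 h. All libraries come from this 1 cell line, without a second line or a tumor, and the labels do not say whether the 3 replicates were separate cultures, so p-values measure the spread between these libraries, which may be technical. The labels' protocols name 2 RNA extraction kits and 2 library kits without assigning them to libraries. The 6 total RNA libraries of 6 h, again 3 with actD and 3 with DMSO, serve below as the earlier time point.

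Actinomycin D binds double-stranded DNA, preferring GC-rich sequence, and stops RNA polymerases as they elongate. At low doses it acts most strongly on RNA polymerase I, which makes the precursor of the 18S, 5.8S and 28S ribosomal RNAs in the nucleolus, and a block there disturbs ribosome assembly and can stabilise p53. The drug has long been part of Wilms tumor treatment, and genes of ribosome production, protein synthesis, stress, replication and p53 are therefore described below in that order.

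Each 72 h library held 40221994 to 67342802 counts, so 3 counts, the limit that a count of 0 allows, correspond to 0.0434 to 0.0801 CPM (depth-scaled counts, normalised between libraries by edgeR's TMM method). After the filter on low counts 21195 genes were tested. DMSO replicate 3, which was also the deepest library, stood apart from the other 5 libraries. It lay at -90.9 on the first principal component (29.7% of the variance), against -12.3 to 48.1 for the others. On the second component (27.2%) DMSO replicate 3 lay at -19.6, near the actD libraries at -26.7, -29.8 and -45.6. DMSO replicates 1 and 2 were at 70.5 and 51.2 there. Results that rest on it are given below also without it. The markers of the labelled cell type were mixed: IGF2, the fetal growth factor often overexpressed in Wilms tumors, was at 1481 to 1816 CPM and LIN28B, a fetal RNA-binding protein, at 294 to 430 CPM, while the nephron progenitor factor SIX2 had 2 to 26 counts and H19 1 to 7 counts per library. The summed level of all 18 nephron progenitor and Wilms tumor markers was 1965 to 2215 CPM with actD and 2003 to 2355 CPM with DMSO. Most of this sum was IGF2, so it says little about the other markers. WT1 was at 3.77, 4.90 and 8.64 CPM with actD and 8.60, 8.34 and 10.11 CPM with DMSO, with overlapping groups. Of the 7 blood cell markers, CD3E and HBB were at 0 in all 6 libraries, and the endothelial marker CDH5 was at 0 as well.

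With edgeR's quasi-likelihood test and Benjamini-Hochberg adjustment over all genes tested, 1 of 21195 genes (0.00472%) had an adjusted p under 0.05. This gene was MGAT3 (chr22:39457344-39492194, plus strand, hg38), whose enzyme adds the bisecting N-acetylglucosamine to N-linked glycans. MGAT3 was at 0.589, 0.462 and 0.342 CPM in actD replicates 1 to 3 and at 8.41, 9.24 and 9.41 CPM in DMSO replicates 1 to 3. All actD libraries were below all DMSO libraries, and MGAT3 fell by 4.28 on the log2 scale (SE 0.31, adjusted p = 0.0227). Leaving out 1 library at a time gave adjusted p-values for MGAT3 from 0.0481, without actD replicate 1, to 0.177, and the other 5 were above the threshold.

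The numbers of genes past looser limits were larger, with more genes lower than higher. An unadjusted edgeR p under 0.05 was reached by 2768 genes (13.1%), of which 1118 were higher with actD (5.27%) and 1650 lower (7.78%). DESeq2, run as an alternative, called 605 of the 19485 genes to which it gave an adjusted p (3.1%), 127 higher (0.652%) and 478 lower (2.45%); it gave one to 91.9% of the genes tested. A joint edgeR fit of the 6 h and 72 h libraries called 617 of 24251 genes (2.54%), 94 higher (0.388%) and 523 lower (2.16%), and 473 genes were called by both of these alternatives. Limma-voom called 4 genes (0.0189%), 3 higher (0.0142%) and MGAT3 lower (0.00472%). In 4426 genes (20.9%) the 3 actD libraries did not overlap the 3 DMSO libraries, 2233 with actD higher (10.5%) and 2193 with actD lower (10.3%). Below, a gene is said to be lower or higher from its values, and the test results follow; none apart from MGAT3 passed the edgeR test.

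The 12 protein-coding genes with the smallest p-values among those lower with actD were led by AARS. AARS, the cytosolic alanyl-tRNA synthetase, was at 18.97, 23.4 and 23.4 CPM with actD and 65.1, 99.98 and 113 CPM with DMSO. The DMSO libraries of AARS were all above the actD libraries, a log2 difference of -2.08 (SE 0.25, edgeR adjusted p = 0.173). MAGED1, an adaptor protein of the melanoma antigen family, was at 16.9, 17.02 and 23.2 CPM with actD and at 60.6, 71.7 and 106.4 CPM with DMSO (log2 difference -2.06). SMARCC1, a core subunit of the BAF chromatin remodelling complex, was at 75.9, 82.9 and 97.3 CPM with actD and 212, 249 and 205 CPM with DMSO (log2 difference -1.38). EPB41, the membrane skeleton protein 4.1R, was at 34.1, 43.1 and 31.8 CPM with actD and 97.2, 97.95 and 96.9 CPM with DMSO. TKT, the transketolase of the pentose phosphate pathway, was at 52.6, 61.7 and 60.3 CPM with actD and 133, 150.4 and 133 CPM with DMSO (log2 difference -1.25). MTHFD1L, a mitochondrial enzyme of one-carbon metabolism, SPTLC3, a subunit of the serine palmitoyltransferase that starts sphingolipid synthesis, and ANXA6, a calcium-dependent membrane-binding protein, differed by log2 values of -1.60, -1.79 and -1.67. The motor protein gene KIF1A, the exocytosis GTPase gene RAB27B, the guanine nucleotide exchange factor gene ARHGEF3 and the Arf GTPase-activating gene ASAP2 made up the 12, with log2 differences of -1.31, -1.61, -1.69 and -1.27. These 12 genes had edgeR adjusted p-values of 0.173 to 0.174, and all 12 were called by DESeq2 and by the joint fit.

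The 12 protein-coding genes with the smallest p-values among those higher with actD were led by LYRM7. LYRM7, an assembly factor of respiratory complex III, was at 56.1, 98.1 and 122 CPM with actD against 10.5, 7.81 and 9.52 CPM with DMSO (log2 difference 3.31, edgeR adjusted p = 0.0735); it overlaps HINT1 on the other strand, and whether strand was used in counting is not given in the sources used here. IPO4, a nuclear import receptor, was at 15.9, 17.9 and 12.5 CPM with actD and 4.06, 5.15 and 5.27 CPM with DMSO (log2 difference 1.67). IL11, a secreted cytokine of the interleukin 6 family, was at 6.97, 7.25 and 8.84 CPM with actD and 3.36, 3.45 and 3.90 CPM with DMSO (log2 difference 1.10). In IPO4 and IL11 the lowest actD library stood well clear of the highest DMSO library. The alkaline ceramidase gene ACER3 was at 66.4, 48.7 and 47.1 CPM with actD against 22.8, 20.7 and 22.7 CPM with DMSO. The dihydroceramide desaturase gene DEGS1, also of sphingolipid metabolism, was at 98.6, 99.8 and 80.4 CPM with actD against 53.1, 35.7 and 48.8 CPM with DMSO. ARRDC4, an arrestin-domain gene responsive to glucose, and TMEM255A were highest in actD replicate 3, at 142 and 35.4 CPM, with 48.8 and 49.8 CPM and 12.9 and 11.8 CPM in actD replicates 1 and 2. The Wnt receptor gene FZD5, SYPL2, the elongin C gene ELOC, CYB5RL and AC118553.2 completed the 12, with log2 differences of 1.13, 1.12, 1.05, 1.08 and 1.86. Their edgeR adjusted p-values ran from 0.0735 to 0.265; DESeq2 called all 12 and the joint fit 8. Of the 12 lower genes 8 were longer than 100 kb in the genome, and of the 12 higher genes 2 were.

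**Figure D1:**
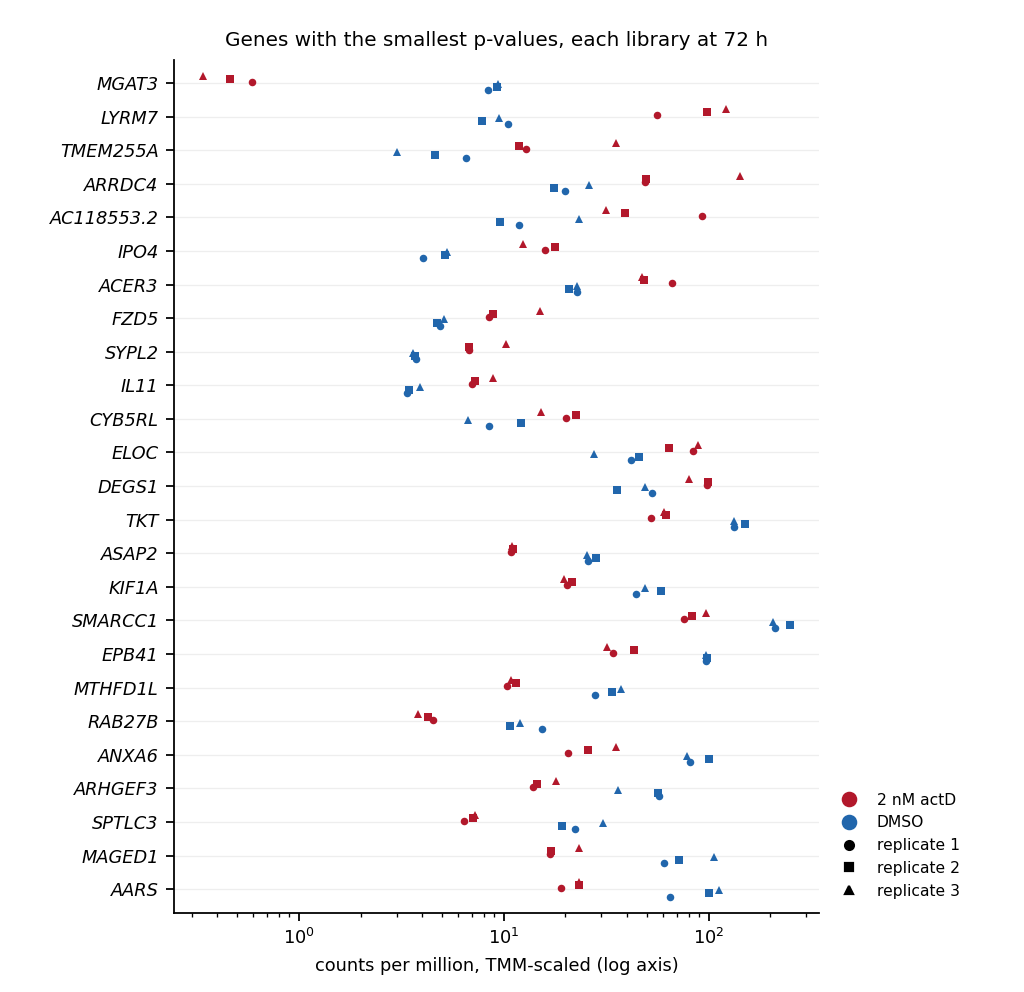
TMM-scaled CPM (horizontal log axis) of MGAT3 and of the 12 higher and 12 lower protein-coding genes in each 72 h library; red is 2 nM actD, blue is DMSO, and the symbol gives the replicate. In every gene shown the red and blue points do not overlap, which was part of how the genes were chosen, and MGAT3 stands apart with 0.342 to 0.589 CPM against 8.41 to 9.41 CPM.

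Among genes of other types the same rule named 4 higher and 4 lower genes, 6 of which are pseudogenes. The lower ones were the ribosomal protein pseudogene RPL3P4 (log2 difference -1.43), the chaperonin pseudogene HSPD1P1 (-1.26), the tubulin pseudogene TUBBP1 (-1.09) and AL162151.2 (-1.81). The parent genes of the first 2, RPL3 and HSPD1, differed by -1.41 and -1.21, and since the handling of reads that match several copies is not given in the sources used here, values of such copies are uncertain. The higher ones were the lincRNA AC011815.1 (1.44), the pseudogenes GBAP1 (1.54) and HIST2H2BC (1.03) and 1 identifier without a name (1.31). All 8 had edgeR adjusted p-values of 0.181 to 0.268.

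The pathway lists differed in how far their members stood from the rest of the genes. The median log2 difference over all 21195 genes was 0.02. It is the measure used for every list below, beside the number of members past each limit. The lowest medians were those of the ATF4-linked amino acid and stress genes (-1.04), the cytosolic aminoacyl-tRNA synthetases (-0.98), DNA replication (-0.78), cholesterol synthesis (-0.72) and the glycolysis and hypoxia-linked genes (-0.67). The small nucleolar RNA host genes had the highest median of the pathway and RNA class lists with more than 2 members (0.38). All long noncoding genes together had the same median (0.38). All counts below of members with an unadjusted p under 0.05 are to be read against 7.78% lower and 5.27% higher among all genes. DESeq2 calls are to be read against 2.255% lower and 0.599% higher among all 21195 genes tested. Where DMSO replicate 3 is left out, the corresponding shares of all genes are 9.7% lower and 7.14% higher. Medians near 0 changed sign with the set of genes fitted. With protein-coding genes only, those of the p53 targets, the respiratory chain, the YAP and TEAD targets and the histones were 0.03, 0.03, 0.04 and 0.02. That of the NF-kB genes was 0.06 in the main fit and -0.04 with protein-coding genes only. When the scaling alone changed it was 0.05 (RLE size factors) and 0.06 (library totals).

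**Figure D2:**
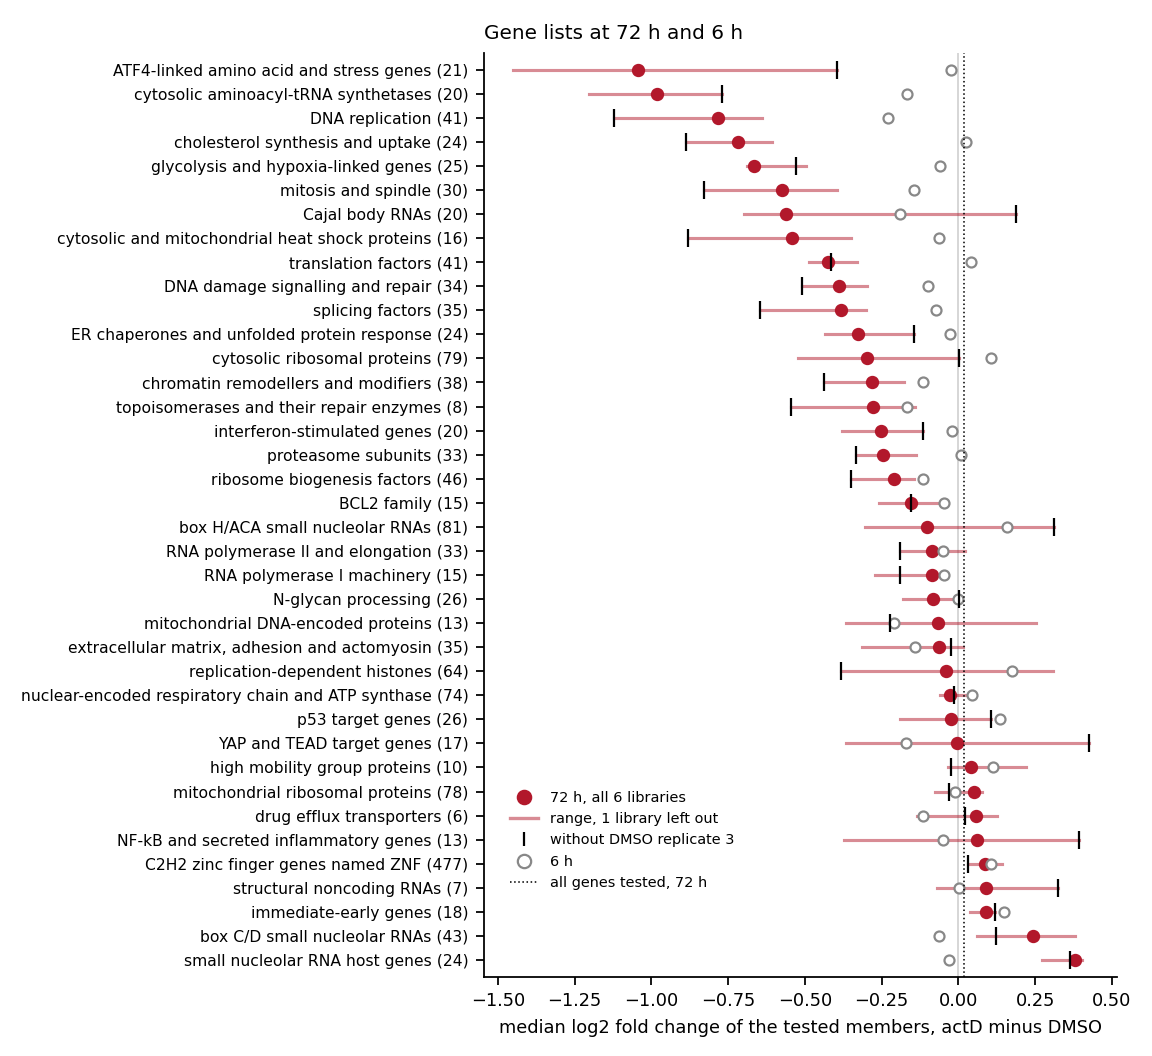
Median log2 difference, actD minus DMSO, of the tested members of 38 gene lists (number of members in parentheses): filled points at 72 h, pink bars the range when 1 of the 6 libraries was left out, black ticks the value without DMSO replicate 3, open circles the value at 6 h, dotted line the median of all genes at 72 h. The ATF4-linked list sits at -1.04 with a range of -1.45 to -0.40, and its open circle at -0.02.

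The enzymes that load amino acids onto transfer RNAs were lower as a group. All 20 cytosolic aminoacyl-tRNA synthetase genes had a log2 difference below 0, 14 of 20 had an unadjusted p under 0.05, and DESeq2 called 10 of them lower. Their summed level was 1355, 1453 and 2065 CPM with actD and 2864, 2771 and 4017 CPM with DMSO, so the groups did not overlap. Besides AARS, the glutamyl-prolyl enzyme EPRS was at 57.6, 65.6 and 131 CPM with actD and 216, 263 and 328 CPM with DMSO (log2 difference -1.67, SE 0.35, edgeR adjusted p = 0.231). The tyrosyl enzyme YARS was at 44.3, 39.3 and 45.9 CPM with actD and 95.9, 87.3 and 148 CPM with DMSO (log2 difference -1.35). In both genes every actD library was below every DMSO library. The glutaminyl enzyme QARS, the leucyl enzyme LARS, the cysteinyl enzyme CARS and the isoleucyl enzyme IARS differed by -1.32, -1.09, -1.45 and -1.10. Without DMSO replicate 3 the median of the list was -0.77, and 14 of 20 had an unadjusted p under 0.05.

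Genes linked to the transcription factor ATF4, which makes cells take up and synthesise amino acids under stress, were lower as well, but with a control library far above the others. The RNA of ATF4 itself had a log2 difference of 0.20, and of -0.075 to 0.559 when 1 library was left out. PHGDH, the first enzyme of serine synthesis, was at 35.9, 39.4 and 16.8 CPM with actD and 117, 141 and 195 CPM with DMSO (log2 difference -2.30, SE 0.37, edgeR adjusted p = 0.19). The next enzyme of that path, PSAT1, was at 58.6, 55.1 and 52.9 CPM with actD and 186, 133 and 454 CPM with DMSO. The asparagine synthetase gene ASNS was at 12.8, 12.2 and 10.5 CPM with actD and 49.9, 38.3 and 213 CPM with DMSO. In PSAT1 and ASNS the groups did not overlap, and DMSO replicate 3 was the highest by a wide margin. The cystine transporter gene SLC7A11 showed the same order, with 5.15 to 7.73 CPM with actD and 29.6, 18.4 and 129 CPM with DMSO. Of 21 tested members 19 were below 0, 12 had an unadjusted p under 0.05, and DESeq2 called 7 lower. Without DMSO replicate 3 the median went from -1.04 to -0.40 and the count from 12 to 9 of 21, with 5 members above 0.

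ATF4 and its partners bind DNA elements that hold TGATGNAA, and the promoters of these genes were searched for that word on both strands in the 250 bases before the RefSeq start (GRCh38.p14). It was found in 3 of the 16 synthetase genes with a promoter entry (18.8%; AARS1, GARS1 and IARS1, the current names of AARS, GARS and IARS) and in 4 of the 17 ATF4-linked genes (23.5%; ASNS, CHAC1, CEBPG and ATF3), against 3.89% of 27305 genes. The matches in ASNS (chr7:97872439-97872506, minus strand), AARS1 (chr16:70289656-70289723, minus strand), GARS1 (chr7:30594815-30594877, plus strand) and IARS1 (chr9:92293698-92293740, minus strand) are printed because these genes belong to the lists that stood lowest; capitals mark the word, which reads as its reverse complement in the last 3. A match describes the letters only, and whether a factor acts through it here was not tested. The ATF4-linked genes were listed for their link to ATF4, so a share above that of all genes was to be foreseen. Of the 4 with the word, ASNS and CHAC1 differed by -3.08 and -2.49, and CEBPG and ATF3 by -0.57 and -0.30.
ASNS: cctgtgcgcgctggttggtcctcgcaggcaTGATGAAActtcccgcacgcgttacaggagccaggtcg
AARS1: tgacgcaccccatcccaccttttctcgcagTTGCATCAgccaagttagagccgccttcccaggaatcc
GARS1: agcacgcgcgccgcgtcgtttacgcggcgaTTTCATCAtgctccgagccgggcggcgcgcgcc
IARS1: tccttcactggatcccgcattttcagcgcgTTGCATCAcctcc

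Translation factors were lower too, and ribosomal protein genes much less so. Of 41 translation factor genes 33 were below 0, 18 had an unadjusted p under 0.05 and DESeq2 called 6 lower, with a median of -0.42. EEF2, the factor that moves the ribosome along the message, was at 537, 610.1 and 592 CPM with actD and 1113, 1470 and 2581 CPM with DMSO (log2 difference -1.57, SE 0.34, edgeR adjusted p = 0.233). EIF3C, a subunit of the initiation factor that holds the small ribosomal subunit, was at 29.4, 36.4 and 53.3 CPM with actD and 86.1, 163 and 110.3 CPM with DMSO (log2 difference -1.59); its near-identical copy EIF3CL makes this value uncertain. EEF1A1, which brings aminoacyl-tRNA to the ribosome, was at 2721, 2598 and 2963 CPM with actD and 5071, 4458 and 9015 CPM with DMSO. In all 3 genes the groups did not overlap. EEF2, EEF1A1 and EIF4B belong, like the ribosomal protein genes, to the messages that start with a pyrimidine tract. The median of the 79 ribosomal protein genes was -0.30, and it was 0.00 without DMSO replicate 3, where 40 of the 79 were above 0. With all libraries 69 of the 79 were below 0, and 5 were lower at an unadjusted p under 0.05 (6.33%, against 7.78% of all genes). DESeq2 called 2 ribosomal protein genes lower, RPL3 and RPS9 (2.53%, against 2.255% of all genes tested), so both shares were near those of all genes. RPL3 was at 248, 257 and 277 CPM with actD and 526, 716 and 833 CPM with DMSO (log2 difference -1.41, DESeq2 adjusted p = 2.84e-05). RPS9, RPL4 and RPL5 differed by -0.70, -1.01 and -0.87, also with groups that did not overlap.

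The machinery that makes ribosomes stood closer to the rest of the genes. RNA polymerase I and its factors had a median of -0.09 over 15 genes, 2 of them with an unadjusted p under 0.05 and 0 called by DESeq2. POLR1A, the large subunit of the enzyme, was at 73.8, 76.2 and 90.9 CPM with actD and 130.1, 158 and 63.96 CPM with DMSO, with overlapping groups. Among 46 ribosome biogenesis factors the median was -0.21 and 9 were lower at an unadjusted p under 0.05. The nucleolar protein NCL was at 144, 162 and 304 CPM with actD and 469, 692 and 353 CPM with DMSO (log2 difference -1.31, edgeR adjusted p = 0.271), and NOLC1 and UTP14A differed by -1.03 and -0.99. The counts at that limit were 5 of 15 and 18 of 46 without DMSO replicate 3. The counts assigned to ribosomal RNA genes were lower: 4 annotated copies of the 5.8S gene, which the polymerase I precursor holds and which cannot be told apart by their reads, each had a log2 difference near -2.3. The first of the copies, RNA5-8SN2, was at 5.12, 8.66 and 5.08 CPM with actD and 17.8, 67.3 and 9.94 CPM with DMSO (log2 difference -2.33, SE 0.69, edgeR adjusted p = 0.276). The groups did not overlap, and DMSO replicate 2 was far above the others. Over all 10 tested ribosomal RNA genes and pseudogenes outside mitochondria the median was -1.71, on a summed level of 22.7, 37.3 and 21.1 CPM with actD and 71.8, 278 and 43.6 CPM with DMSO. Such reads are what remains of ribosomal RNA in these libraries and do not measure its amount in the cells.

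Chaperones of the cytosol and mitochondria were lower, by an amount that depended on the control library. Of 16 heat shock protein genes 13 were below 0, 5 had an unadjusted p under 0.05, and DESeq2 called 4 lower. HSPD1, the mitochondrial chaperonin, was at 206, 241 and 232 CPM with actD and 551, 585 and 438 CPM with DMSO (log2 difference -1.21, SE 0.21, edgeR adjusted p = 0.19). HSPA9, the mitochondrial Hsp70, was at 158, 174 and 224 CPM with actD and 407, 406 and 439.9 CPM with DMSO (log2 difference -1.17). HSP90AB1, the constitutive Hsp90, was at 370, 423 and 719 CPM with actD and 1246, 1375 and 936 CPM with DMSO (log2 difference -1.23). These groups did not overlap. HSPA8, the constitutive Hsp70, was at 569, 849.7 and 684 CPM with actD and 2416, 2037 and 741 CPM with DMSO, so that DMSO replicate 3 lay between actD libraries. The median of the list was -0.54, and -0.88 without DMSO replicate 3, where 9 of 16 had an unadjusted p under 0.05.

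Heat shock factor binds repeats of GAA and its complement, and a run of GAA, NN, TTC, NN and GAA, with N any base, was searched on both strands of the same 250-base windows. It was present in 4 of the 15 heat shock protein genes with an entry (26.7%; HSPA8, HSP90AA1, HSP90AB1 and HSPD1) and in 0.557% of 27305 genes. The list was made of heat shock protein genes, so such an excess was to be foreseen, and whether the factor acts here was not tested. One match each in HSPA8 (chr11:123062149-123062221, minus strand), HSPD1 (chr2:197500038-197500090, minus strand) and HSP90AB1 (chr6:44247801-44247873, plus strand) is printed with the matched letters in capitals, because the values of these 3 genes are given above. HSPA8 and HSP90AB1 hold 2 matches, of which the one nearer to the start is shown, and in HSPD1 2 overlapping matches are shown together.
HSPA8: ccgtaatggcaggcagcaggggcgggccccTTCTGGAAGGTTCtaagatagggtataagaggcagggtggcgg
HSPD1: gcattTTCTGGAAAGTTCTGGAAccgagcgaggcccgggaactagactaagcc
HSP90AB1: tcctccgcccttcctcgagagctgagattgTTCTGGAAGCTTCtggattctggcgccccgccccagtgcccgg

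Chaperones of the endoplasmic reticulum and the proteasome differed less. Of 24 endoplasmic reticulum genes 19 were below 0 and 6 had an unadjusted p under 0.05, with a median of -0.33. The median was -0.15 without DMSO replicate 3, with 16 below 0, 4 lower and 2 higher at that limit. XBP1, a transcription factor of the unfolded protein response, was at 40.8, 37.5 and 22.3 CPM with actD and 76.98, 59.8 and 79.6 CPM with DMSO (log2 difference -1.11), and the chaperone gene HSPA5 was at 94.3, 105 and 198 CPM with actD and 210.2, 273 and 304 CPM with DMSO (-0.98). Neither gene's groups overlapped. Of the 33 proteasome genes 32 were below 0 with a median of -0.25, and 6 had an unadjusted p under 0.05, with 0 called by DESeq2. PSMD1, a scaffold of the regulatory particle, was at 52.03, 60.02 and 104.7 CPM with actD and 184, 196 and 105.5 CPM with DMSO (log2 difference -1.16, edgeR adjusted p = 0.278).

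DNA replication genes were lower in nearly every member. Of 41 genes 40 were below 0, 21 had an unadjusted p under 0.05, and DESeq2 called 10 lower. RRM1, the large subunit of ribonucleotide reductase, was at 50.9, 60.1 and 60.5 CPM with actD and 185, 207 and 97.6 CPM with DMSO (log2 difference -1.51, SE 0.30, edgeR adjusted p = 0.208). RPA1, which coats single-stranded DNA, was at 21.7, 21.01 and 22.9 CPM with actD and 57.97, 84.1 and 41.3 CPM with DMSO (-1.48). MCM7, a subunit of the replicative helicase, was at 52.4, 61.4 and 46.3 CPM with actD and 177, 218 and 72.7 CPM with DMSO (-1.55). In all 3 genes the groups did not overlap, and DMSO replicate 3 was the lowest of the controls. LIG1, the replicative ligase, MCM6, POLA1, a subunit of primase-polymerase, and CDC45 differed by -1.67, -1.63, -1.25 and -1.32. The median of the list was -0.78 with all libraries and -1.12 without DMSO replicate 3, where 28 of 41 had an unadjusted p under 0.05. In bulk RNA, a smaller share of cells in S phase and less RNA per such cell cannot be told apart.

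The word TTTCCCGC, part of the element bound by E2F factors, which time replication genes to the G1 to S transition, was present in 9 of the 34 replication genes with a promoter entry (26.5%) and in 1.7% of 27305 genes, on either strand of the same windows. The 9 genes were MCM3, MCM7, CDT1, GINS2, PCNA, RFC3, LIG1, TYMS and UHRF1. In a list of replication genes such an excess was to be foreseen, and whether E2F factors act here was not tested. Matches are printed for MCM7 (chr7:100101547-100101614, minus strand), LIG1 (chr19:48170421-48170488, minus strand) and PCNA (chr20:5126644-5126711, minus strand), with the word or its reverse complement in capitals. MCM7 and LIG1 are described above, and PCNA is the sliding clamp of the replicative polymerases.
MCM7: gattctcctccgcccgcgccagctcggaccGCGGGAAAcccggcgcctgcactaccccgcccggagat
LIG1: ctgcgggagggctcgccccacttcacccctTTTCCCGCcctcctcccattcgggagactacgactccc
PCNA: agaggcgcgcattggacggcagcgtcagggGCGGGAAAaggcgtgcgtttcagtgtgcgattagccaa

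DNA repair genes were lower in 31 of 34 members, 12 with an unadjusted p under 0.05, and 19 without DMSO replicate 3. PARP1, which marks DNA breaks with poly(ADP-ribose), was at 30.8, 37.7 and 36.7 CPM with actD and 138, 299.7 and 71.3 CPM with DMSO (log2 difference -2.27, SE 0.49, edgeR adjusted p = 0.232). The mismatch repair gene MSH6 was at 52.7, 43.7 and 44.7 CPM with actD and 146, 118 and 102 CPM with DMSO (-1.38). The groups of PARP1 and MSH6 did not overlap. TOP1, the topoisomerase that relaxes DNA ahead of polymerases, was at 21.97, 22.99 and 30.2 CPM with actD and 59.4, 116 and 31.6 CPM with DMSO (-1.46). Mitosis and spindle genes had a median of -0.58 over 30 genes, with 6 at an unadjusted p under 0.05. DESeq2 and the joint fit each called 0 of these 30 genes. In 4 of the 30 all actD libraries were below all DMSO libraries (13.3%, against 10.3% of all genes). KIF11, the motor that separates the spindle poles, was at 109.6, 122 and 92.96 CPM with actD and 235, 242 and 97.3 CPM with DMSO. DMSO replicate 3 of KIF11 lay among the actD libraries. Without DMSO replicate 3 the mitosis median was -0.83 and 21 of 30 had an unadjusted p under 0.05.

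Genes of sterol synthesis and a list of glycolysis and hypoxia-linked genes were lower, and nuclear genes of the respiratory chain were not. Of 24 genes of cholesterol synthesis and uptake 21 were below 0 and 16 had an unadjusted p under 0.05, and without DMSO replicate 3 the count was 17. HMGCS1, which makes the precursor of mevalonate, was at 65.3, 76.4 and 95.7 CPM with actD and 258, 235 and 178 CPM with DMSO (log2 difference -1.50, SE 0.24, edgeR adjusted p = 0.19). FDFT1, the squalene synthase, was at 43.4, 47.1 and 36.9 CPM with actD and 76.4, 79.1 and 80.0 CPM with DMSO (-0.89). INSIG1, which holds the sterol-sensing complex in the endoplasmic reticulum, was at 16.9, 19.7 and 12.9 CPM with actD and 66.6, 52.1 and 22.8 CPM with DMSO (-1.51). In all 3 genes the groups did not overlap. A sterol element, ATC followed directly by ACCCCAC, was searched on both strands of the same promoter windows and found in 1 of the 18 genes of this list with an entry (5.56%; SREBF2, log2 difference -0.26) and in 0.0439% of 27305 genes. In a list of sterol genes a share above that of all genes was to be foreseen. Of 25 glycolysis and hypoxia-linked genes 23 were below 0, and 9 were lower and 1 higher at an unadjusted p under 0.05. The lower ones were led by the phosphofructokinase PFKL at 24.1, 26.8 and 23.3 CPM with actD and 56.3, 84.6 and 54.2 CPM with DMSO (-1.40). The hexokinase HK2 differed by -1.55 and PGK1, a kinase of the pay-off phase, by -0.72. Of 74 nuclear respiratory chain and ATP synthase genes 34 were above 0 and 40 below, with a median of -0.03 and 6 lower and 1 higher at an unadjusted p under 0.05. The 78 mitochondrial ribosomal protein genes had a median of 0.05, and the 13 proteins encoded by mitochondrial DNA a median of -0.07.

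**Figure D3:**
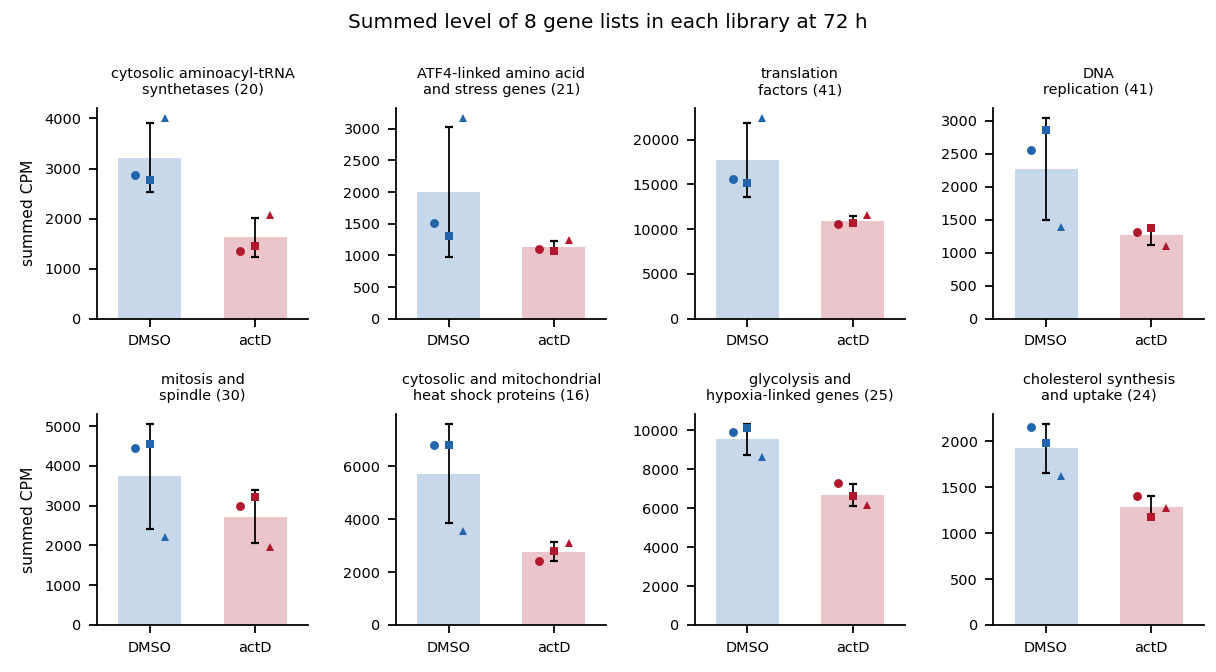
Summed TMM-scaled CPM (vertical axis, from 0) of the tested members of 8 gene lists at 72 h; bars are the mean of 3 libraries, error bars the SD, and points the libraries (circle, square and triangle for replicates 1 to 3). Red and blue points do not overlap in 7 of the lists, mitosis being the exception. DMSO replicate 3 is the highest control for the synthetases, the ATF4-linked genes and the translation factors and the lowest for the others. Sums follow the abundant members. The median member's log2 deviation from its mean overlapped also for heat shock proteins (DMSO replicate 3 -0.419, actD -0.363, -0.21 and -0.066). It overlapped for DNA replication too (DMSO replicate 3 -0.249, actD -0.374, -0.193 and -0.632).

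Targets of p53 showed no shared direction. Of 26 target genes 13 were above 0 and 13 below, with a median of -0.02, 1 higher and 2 lower at an unadjusted p under 0.05. CDKN1A, the cyclin-dependent kinase inhibitor p21, was at 2.20, 2.00 and 1.91 CPM with actD and 1.47, 1.31 and 1.01 CPM with DMSO (log2 difference 0.69, SE 0.28, edgeR adjusted p = 0.361). Its groups did not overlap, but the level was low. XPC, a damage sensor of nucleotide excision repair and a p53 target, was at 12.4, 15.9 and 12.9 CPM with actD and 21.7, 30.6 and 24.4 CPM with DMSO (-0.90). Of 15 BCL2 family genes 10 were below 0, and PMAIP1, the pro-apoptotic NOXA, was at 6.396, 6.44 and 5.75 CPM with actD and 14.1, 10.2 and 18.1 CPM with DMSO (-1.19, DESeq2 adjusted p = 0.00531). Splicing factors (median -0.38, 9 of 35 lower at an unadjusted p under 0.05) and chromatin remodellers (-0.28, 8 of 38) were lower, and RNA polymerase II and its elongation factors had a median of -0.09 with 0 of 33 at that limit by edgeR and 0 called by DESeq2. Without DMSO replicate 3 these counts were 20 of 35, 17 of 38 and 5 of 33.

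The N-glycan list, which holds MGAT3, had a median of -0.08 over 26 genes, with 3 lower, MGAT3 among them, and 1 higher at an unadjusted p under 0.05. MGAT5, which adds a branch that MGAT3's product blocks, was at 18.95, 17.6 and 22.2 CPM with actD and 42.7, 43.7 and 51.3 CPM with DMSO (log2 difference -1.23, SE 0.19, edgeR adjusted p = 0.19). The sialyltransferase gene ST6GAL1 was at 2.00, 2.22 and 1.62 CPM with actD and 4.81, 5.09 and 5.13 CPM with DMSO (-1.36). MGAT2, which acts earlier on the same glycan core, was at 68.98, 62.5 and 68.6 CPM with actD and 52.9, 43.04 and 42.5 CPM with DMSO (0.53). The groups of all 3 genes did not overlap. Immediate-early genes had 0 of 18 members at an unadjusted p under 0.05 by edgeR and 0 called by DESeq2, with a median of 0.09. The YAP and TEAD targets had a median of -0.01 over 17 genes, which rested on single libraries. It was 0.424 without DMSO replicate 3 and -0.365 without actD replicate 3. Their summed level was 709.8, 743.1 and 2089 CPM with actD and 853.4, 857.9 and 1212 CPM with DMSO.

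Gene types differed in direction. Long noncoding RNA genes had a median log2 difference of 0.38, with 2515 of 3243 above 0, while protein-coding genes had a median of -0.05 over 14357. At an unadjusted p under 0.05, 359 long noncoding genes were higher and 36 lower, and 601 protein-coding genes were higher and 1425 lower. The groups did not overlap in 678 long noncoding genes that were higher (20.9%, against 10.5% of all genes) and in 76 that were lower (2.34%, against 10.3%). DESeq2 called 31 long noncoding genes higher and 10 lower (0.956% and 0.308% of those tested, against 0.599% and 2.255% of all genes tested). Antisense, intergenic and intronic noncoding genes had similar medians, 0.39, 0.39 and 0.37. Their levels were low, so the same comparison was made within 5 equal classes of mean level: in the third class the median was 0.33 for long noncoding, -0.03 for protein-coding genes and -0.08 for pseudogenes, and in the highest class it was 0.13, -0.13 and -0.31. The values of the highest class rest on 39 long noncoding genes, with 0.00 to 0.32 when 1 library was left out, and on 110 pseudogenes, with -0.11 without DMSO replicate 3. Leaving out 1 library at a time gave medians of 0.29 to 0.42 for the long noncoding genes, and at 6 h the median was 0.03. Whether counting used strand is not given in the sources used here, so for antisense genes reads of the opposite gene cannot be told apart.

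Among the noncoding genes with known roles, NEAT1, the scaffold of nuclear paraspeckles, was at 124, 119 and 112 CPM with actD and 58.5, 77.8 and 57.2 CPM with DMSO (log2 difference 0.88, SE 0.20, edgeR adjusted p = 0.241). The host genes of small nucleolar RNAs, whose introns hold the guides of ribosomal RNA modification, had a median of 0.38, with 18 of 24 above 0 (75%) and 3 higher at an unadjusted p under 0.05 (12.5%). These values were close to those of all long noncoding genes, with a median of 0.38, 77.55% above 0 and 11.07% higher at that limit. SNHG3 was at 147, 136 and 152 CPM with actD and 84.9, 92.4 and 107.9 CPM with DMSO (0.61), and SNHG9 at 4.47, 4.77 and 4.36 CPM with actD and 2.14, 2.70 and 1.84 CPM with DMSO (1.03). In these 3 genes every actD library was above every DMSO library. The box C/D small nucleolar RNAs themselves had a median of 0.24 over 43 genes and the box H/ACA ones of -0.10 over 81 genes, and without DMSO replicate 3 these were 0.12 and 0.31. Genes named ZNF, the C2H2 zinc finger proteins, had a median of 0.09 over 477 genes, 23 of them higher and 13 lower at an unadjusted p under 0.05. Replication-dependent histone genes, made in S phase, had a median of -0.04 over 64 genes, and -0.38 without DMSO replicate 3.

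As a share of all counts, protein-coding genes outside the mitochondrial genome took 56.8% ± 4.56 with actD and 64.5% ± 2.43 with DMSO (SD, n = 3 each). The smallest p that an exact two-sided permutation test of 3 against 3 can give is 0.1; this share reached it, and after adjustment over 9 gene types it was 0.225. Counts of mitochondrial ribosomal RNA differed the other way, at 32.3%, 27.8% and 24.6% with actD and 22.5%, 19.4% and 15.5% with DMSO. Over the counts outside the mitochondrial genome the protein-coding share was 80.6% with actD and 81.2% with DMSO. Although most long noncoding genes were above 0, their summed share was 2.34% ± 0.51 with actD and 3.05% ± 1.35 with DMSO, with overlapping groups. The share of structural RNAs other than small nuclear and nucleolar RNAs was 7.395% ± 0.37 and 7.69% ± 1.89, also overlapping.

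Long protein-coding genes were lower more often than short ones. The median log2 difference was 0.14 in the 1258 genes under 5 kb, 0.08 at 5 to 20 kb, -0.03 at 20 to 50 kb, -0.12 at 50 to 100 kb, -0.22 at 100 to 200 kb and -0.42 in the 1172 genes over 200 kb. At an unadjusted p under 0.05, 309 genes over 200 kb were lower and 14 higher, against 36 lower and 81 higher under 5 kb. DESeq2 called 116 genes over 200 kb lower and 3 higher. Without DMSO replicate 3 the medians of the shortest and longest class were 0.07 and -0.32, and without actD replicate 3 they were 0.17 and -0.69. The genes over 200 kb were low in actD replicates 1 and 2 and not in actD replicate 3: their summed level was 20960, 21350 and 33340 CPM with actD and 33350, 32570 and 35120 CPM with DMSO, so the groups overlapped. The same order was present within these classes of mean level: in the third class the median went from 0.11 under 5 kb to -0.52 over 200 kb, in the fourth from 0.09 to -0.43 and in the highest from -0.01 to -0.36. At 6 h the medians were 0.03 under 5 kb and -0.11 over 200 kb. By exon number the median was 0.06 in genes of 1 exon, 0.13 at 2 to 5 exons and -0.27 at more than 20 exons. Long noncoding genes differed less by length, with medians of 0.38 under 5 kb and 0.29 over 50 kb.

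**Figure D4:**
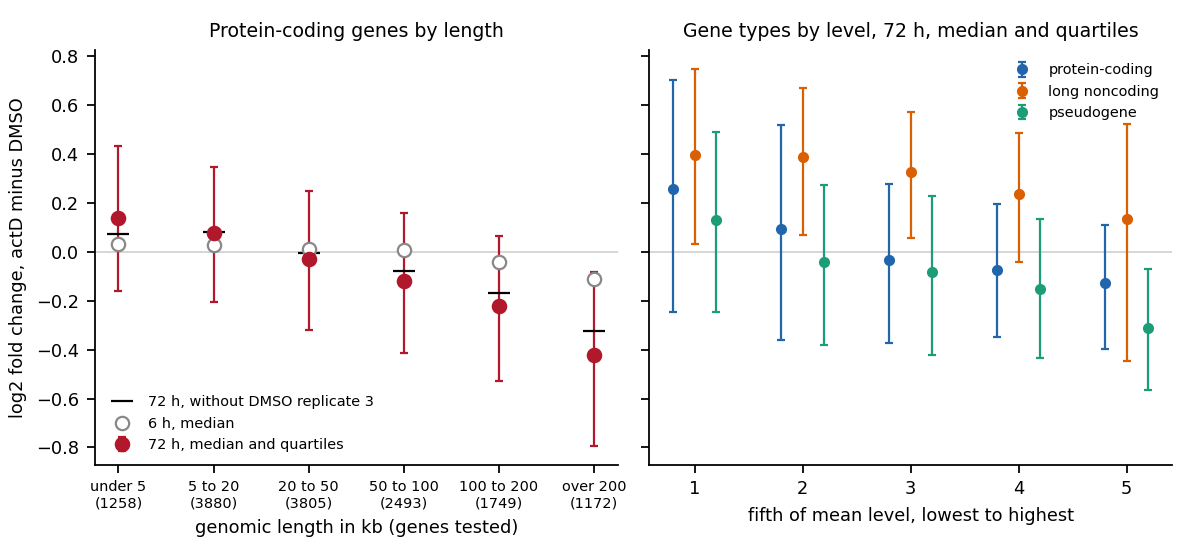
Log2 difference, actD minus DMSO, by genomic length of protein-coding genes (left; kb, number of genes in parentheses) and by class of mean level, 1 lowest to 5 highest, for 3 gene types (right), as medians with quartiles at 72 h; open circles on the left are 6 h and black dashes leave out DMSO replicate 3. On the left the medians go down from 0.14 under 5 kb to -0.42 over 200 kb, and on the right long noncoding genes lie above protein-coding genes in each class.

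The difference between the 72 h and the 6 h response was tested as an interaction in the joint edgeR fit of 24251 genes, and 4 genes passed (0.0165%), 3 with a higher effect at 72 h (0.0124%) and MGAT3 with a lower one (0.00412%). At 6 h alone 0 genes passed in that fit, with 903 at an unadjusted p under 0.05 (3.72%; 1.98% higher and 1.74% lower). The interaction reached an unadjusted p under 0.05 in 1944 genes (8.02%), with 2.84% higher and 5.18% lower. DESeq2 called 158 genes in the same interaction. The lists that were lowest at 72 h stood closer to 0 at 6 h. The median at 6 h was -0.02 for the ATF4-linked genes, -0.17 for the synthetases and -0.23 for DNA replication. It was 0.02 for cholesterol synthesis and -0.06 for the glycolysis and hypoxia-linked genes. Whether a list as a whole differed between the times was not tested. For the 24 protein-coding genes named above the log2 differences at 6 h ran from -0.84 to 0.84, and the adjusted p of the interaction was under 0.05 only in LYRM7 (0.0321), with the others at 0.143 to 0.891.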

How the data were processed

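Total RNA libraries of WiT49 cells, 3 with actD and 3 with DMSO at 72 h, were analysed, with the 6 libraries of 6 h as the earlier time. The authors deposited estimated counts (expected counts) per gene; the submitters' processing notes name HISAT2, StringTie and hg38, and the versions, the role of each tool, strand use and the handling of reads that match several places are not given in the sources used here. The values were already whole, so rounding changed nothing. Totals were 40221994 to 67342802 counts per 72 h library, which limits low genes; intervals and floors cover counting error only. Gene names and types came from GENCODE 29 (57881 of 58219 identifiers, 99.4%, matched without version).

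Genes passing filterByExpr were tested with edgeR 4.0.16 (quasi-likelihood test, TMM, two-sided, Benjamini-Hochberg over all genes, threshold 0.05) in R 4.3.3. Alternatives were DESeq2 1.42.0, limma-voom 3.58.1, the joint fit of 6 h and 72 h, RLE size factors, library totals, no filter on low counts, protein-coding genes only, no mitochondrial genes, a replicate block, and leaving out each library. The method was tested on simulated data. Shares of counts by gene type were compared with exact permutation tests. Lists are described by counts and medians.

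Named genes were those called; the 12 higher and 12 lower protein-coding genes, and 4 of other types each way, with the smallest p among genes with a mean of at least 5 CPM, an absolute log2 difference of at least 1 and groups that did not overlap; and, in each list, preset lead members and the members with the smallest p in each direction. Further list members with values were picked by their p-values, with the values in view. The members and lists were chosen with earlier results of these data known. The classes of length within level were chosen after seeing the data. Genes were matched to RefSeq promoter windows by symbol. Some genes that the naming rule reached are not reported here.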

Additional observations from a re-analysis of the deposited data

Results flagged for a closer look

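In 4 genes the effect of actD differed between 72 h and 6 h by edgeR's test of the interaction, given here as the log2 effect at 72 h minus that at 6 h. MGAT3 had a difference of -3.94 (adjusted p = 0.0003576). LYRM7, which overlaps HINT1 on the other strand, had a difference of 2.88 (adjusted p = 0.03214). AC011511.1, whose locus lies over parts of ZGLP1 and FDX2, transcribed in the same direction, had a difference of 5.42 (adjusted p = 0.01977). The pseudogene AC023512.1 had a fitted difference of 9.34 (adjusted p = 0.01306), which depends on the prior count because all 3 DMSO libraries of 72 h were at 0, against 1.08, 1.11 and 1.03 CPM with actD. LYRM7 was no longer past the threshold without any 1 of 5 of the 6 h libraries (adjusted p 0.0885 to 0.173; the exception was actD replicate 3). AC011511.1 was not past it without 6 h DMSO replicate 1 or 2, 6 h actD replicate 2 or 72 h DMSO replicate 1 or 2 (0.0531 to 0.106), and AC023512.1 was not without 6 h DMSO replicate 1 (0.0512) or 6 h actD replicate 2 (0.0641). With a replicate block the adjusted p was 0.0568 for MGAT3 and 0.11 for the other 3. The number of genes past the threshold in this test depended on the libraries, from 1 to 38 when 1 library was left out.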

How the results depend on the processing

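The count of genes past the threshold at 72 h (1) was 605 with DESeq2, 617 in the joint fit, 4 with limma-voom and 0 with a replicate block; with the block 0 genes passed in the interaction too, where DESeq2 called 158 and the count was otherwise 4. Leaving out 1 library gave 0 to 3 genes at 72 h (3 without actD replicate 1, 0 without each of the others). In the interaction it gave 1 to 38: 38 and 7 without 72 h actD replicates 3 and 2, 14 and 8 without 72 h DMSO replicates 3 and 2, 1 without 6 h DMSO replicate 1 or 6 h actD replicate 2, and 2 without 6 h DMSO replicate 2. The labels do not say whether the replicate numbers pair the samples, and the main fit did not pair them. Deviations of same-numbered libraries correlated at 0.085, 0.226 and 0.15, and those of differently numbered ones at -0.152 to -0.024. Each library thus correlated best with its own number, a hint from the data and not the design. Library totals, RLE size factors, no filter, protein-coding genes only and no mitochondrial genes gave 1 gene each. The permutation test of gene type shares cannot give a p under 0.1 with 3 libraries a group or fewer. It could therefore call no share in any setting, and the absence of calls says nothing about stability. With protein-coding genes only, ATM was at 0.019, LATS2 at 0.044 and MT-CYB at 0.013, and MT-CO1 was at -0.002 with limma-voom. Outside the mitochondrial genome the share of other structural RNA was 0.86 points higher with actD and that of small nucleolar RNA 0.0156 points higher. With 1 library left out the ranges were: RPL11 -0.28 to 0.26, PSMD12 -0.085 to 0.16, ATF4 -0.075 to 0.56, BAX -0.22 to 0.10, ATM -0.20 to 0.072, CDK1 -0.45 to 0.006, PLK1 -0.64 to 0.072, MKI67 -1.58 to 0.067, SRRM2 -1.48 to 0.91, POLR2A -1.02 to 0.052, COX4I1 -0.61 to 0.08, CYR61 -0.33 to 1.68, CTGF -0.78 to 2.29, LATS2 -0.27 to 0.11, FOS -0.15 to 0.72, GDF15 -3.15 to 0.82, MT-CO1 -0.22 to 0.35, MT-CYB -0.27 to 0.22, HMGA1 -0.36 to 0.36, RN7SK -0.23 to 0.78, MALAT1 -0.06 to 0.48 and GAS5 -0.89 to 0.46, and for shares in percentage points other structural RNA -1.31 to 0.56, mitochondrial protein-coding -0.174 to 0.322, small nuclear RNA -0.168 to 0.555 and small nucleolar RNA -0.0536 to 0.0549. Of 180 single genes 22 changed sign in some setting, 0 of them called; the cause was not tested. Depth limits genes near 0.0434 to 0.0801 CPM, and 3 libraries a group limit the rest.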

Other observations

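Several other groups of genes held members whose actD and DMSO libraries did not overlap, though none passed the edgeR test. Among 35 genes of the extracellular matrix, adhesion and the actomyosin cytoskeleton 8 were lower and 2 higher at an unadjusted p under 0.05, and the median was -0.06, with -0.31 to 0.02 when 1 library was left out. VCL, which links integrins to actin, was at 29.6, 38.2 and 54.2 CPM with actD and 78.2, 103 and 85.6 CPM with DMSO (log2 difference -1.13, SE 0.26, edgeR adjusted p = 0.242). The basement membrane laminin gene LAMB2 went the other way, at 42.6, 41.2 and 59.1 CPM with actD and 23.4, 29.99 and 27.9 CPM with DMSO (0.81), as did FN1, the fibronectin gene, at 46.6, 51.9 and 164 CPM against 31.3, 38.1 and 43.8 CPM (1.22). FN1 was highest in actD replicate 3, the library in which the YAP target gene CTGF was at 504 CPM, against 46.3 and 47.2 CPM in actD replicates 1 and 2 and 44.2, 37.2 and 158 CPM with DMSO.

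ABCB1, the efflux pump P-glycoprotein, which carries actD among other drugs, was at 1.90, 1.79 and 3.75 CPM with actD and 1.31, 1.08 and 0.406 CPM with DMSO (log2 difference 1.43, SE 0.51, edgeR adjusted p = 0.324). The pump genes ABCC1 and ABCC4 were lower, at 29.8 to 33.2 CPM against 36.3 to 46.2 CPM (-0.41) and at 23.2 to 32.4 CPM against 32.9 to 42.7 CPM (-0.49). The median over the 6 efflux genes tested was 0.06, with -0.14 to 0.13 when 1 library was left out. HMGB1, a chromatin protein that also acts as an extracellular alarm signal, was at 432, 214 and 216 CPM with actD and 209.8, 137 and 101 CPM with DMSO (0.95). ISG15, a ubiquitin-like interferon-induced protein, was higher, at 17.5, 19.2 and 15.5 CPM against 10.3, 13.03 and 9.96 CPM (0.65), and IFIT1 of the same list was lower, at 10.2, 9.12 and 6.30 CPM against 13.96, 13.1 and 12.5 CPM (-0.62). The interferon list had a median of -0.25 over 20 genes, and of -0.12 without DMSO replicate 3. The NF-kB list had a median of 0.06 over 13 genes, 0.39 without DMSO replicate 3 and below 0 without each of the other 5 libraries, down to -0.37 without actD replicate 3. The 10 high mobility group proteins had a median of 0.04, with -0.04 to 0.22 when 1 library was left out. Small Cajal body RNAs, which guide the modification of spliceosomal RNAs, had a median of -0.56 over 20 genes, and of 0.19 without DMSO replicate 3.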
